A study of Mus musculus with 2 samples.

Results

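The 10 genes of this account are the mouse genes for prostaglandin synthesis and for prostaglandin receptors, chosen by name: 4 synthesis genes (Ptgs1, Ptgs2, Ptges and Ptgds) and 6 receptor genes (Ptger1, Ptger2, Ptger3, Ptger4, Ptgir and Ptgdr). All 10 of 10 were found among the 39098 gene symbols of the series, and each had counts in both libraries. The cells came from right trigeminal ganglia (TG), the sensory ganglia of the face, of male C57BL/6 mice aged 5 to 8 weeks, dissociated with papain and profiled by BD Rhapsody whole-transcriptome single-cell RNA sequencing. The CFA library came from mice given 20 μL of complete Freund's adjuvant, an oil with killed mycobacteria that inflames the tissue, mixed with an equal volume of saline, in the right vibrissal pad. The control library carries the label untreated, while the study's methods describe a saline injection. Ganglia were taken a week after injection according to those methods. Each group was 1 library, and how many mice went into each was not given in the sources used here. With 1 library a group no test of the treatment exists, so every interval below covers counting error only, and an effect of CFA cannot be told apart from a difference between 2 libraries.

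Counts were unique molecular identifiers (UMIs), each standing for 1 captured RNA molecule, and the libraries held 48916096 and 22096268 of them. After a filter on genes and mitochondrial counts, 6695 control cells with a median of 1448 UMIs and 3661 CFA cells with a median of 1192 UMIs remained. Cells were placed in classes by raw UMIs of marker panels that hold none of the 10 genes, which gave 860 control and 426 CFA neurons, 464 and 257 fibroblasts, 700 and 209 satellite glial cells, 268 and 155 endothelial cells, and 170 and 154 macrophages. Of 98 further markers kept out of the gates, 74 in control cells and 73 in CFA cells were highest in the class they stand for. Only 1 of 4 such markers was highest in the Sstr2 peptidergic C class and 1 of 4 in the Nefh peptidergic class, in both libraries, so these 2 names stand for their gates alone. The count was also low for Trpm8 neurons (2 of 4) and satellite glia (2 of 5) in both libraries, for NF neurons of the CFA library (1 of 4), and for Sstr2-negative peptidergic C neurons (2 of 4) and B cells (2 of 4) of the control library. Neurons were deep, with a median of 42404 UMIs in control cells and 35294 in CFA cells, and held 80.3% and 77.6% of all UMIs. Levels are therefore given as CPM, the gene's UMIs for every 1000000 UMIs summed over the cells of a class in 1 library, with exact 95% Poisson intervals in brackets. Log2 ratios are CFA over control, and they and the folds between classes carry exact binomial 95% intervals. A sum over a class does not tell fewer cells of a kind apart from less RNA in each. The 2 libraries shared 27 cell labels, of which 22 passed the filter in both and 4 fell in the same class.

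Prostaglandins are lipid mediators made from arachidonic acid. The cyclooxygenases COX-1 and COX-2, encoded by Ptgs1 and Ptgs2 and blocked by aspirin-like drugs, make the common precursor prostaglandin H2, which terminal synthases turn into prostaglandin E2 (microsomal prostaglandin E synthase, Ptges) or prostaglandin D2 (lipocalin-type prostaglandin D synthase, Ptgds). The products act on G protein-coupled receptors: the E2 receptors EP1 to EP4 (Ptger1 to Ptger4), the prostacyclin receptor IP (Ptgir) and the D2 receptor DP1 (Ptgdr). In sensory ganglia prostaglandin E2 and prostacyclin are known for sensitizing nociceptors, the neurons that report painful stimuli, and this is one reason why cyclooxygenase inhibitors relieve inflammatory pain.

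The promoters of the cyclooxygenase genes, which start the pathway, are shown because Ptgs1 had most of its counts in macrophages of both libraries, while Ptgs2 was spread over fibroblasts and myeloid cells. The sequences run from 250 bases before to 50 bases after the start of the gene (RefSeq, GRCm38.p6). Gene positions elsewhere are those of GENCODE M21 on GRCm38. Ptgs1 lies on the plus strand, chr2:36230176-36230475, and Ptgs2 on the plus strand, chr1:150099781-150100080. Capitals mark matches, on either strand, to the cyclic AMP response element half-site TGACG, the E-box CACGTG or the TATA box TATAAA.
Ptgs1: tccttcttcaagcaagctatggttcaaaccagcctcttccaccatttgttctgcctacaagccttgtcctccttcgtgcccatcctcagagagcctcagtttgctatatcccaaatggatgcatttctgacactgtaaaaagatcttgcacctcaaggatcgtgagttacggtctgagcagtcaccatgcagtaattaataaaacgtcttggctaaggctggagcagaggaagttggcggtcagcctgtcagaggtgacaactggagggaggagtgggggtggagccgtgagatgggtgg
Ptgs2: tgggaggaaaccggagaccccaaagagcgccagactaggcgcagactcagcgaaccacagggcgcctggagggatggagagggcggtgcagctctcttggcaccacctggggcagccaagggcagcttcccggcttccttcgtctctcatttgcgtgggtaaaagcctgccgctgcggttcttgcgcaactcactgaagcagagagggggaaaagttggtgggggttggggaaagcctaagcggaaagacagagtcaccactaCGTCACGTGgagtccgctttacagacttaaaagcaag
The Ptgs2 stretch held the half-site on the opposite strand and the E-box, which overlap by 2 bases 13 to 21 bases after the start, and the Ptgs1 stretch held none of the 3. Over 32851 promoter stretches of the same length, TGACG occurred in 20.8%, CACGTG in 7.15% and TATAAA in 13.6%. A match is a match of letters only.

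The synthesis genes were carried by non-neuronal cells and the receptor genes mostly by neurons. Of the UMIs of Ptger1, 98.9% lay in neurons of the control and 98.1% in those of the CFA library, and the neuronal share was between 95% and 99.3% for Ptger2, Ptger3, Ptgir and Ptgdr. Ptger4 was the exception among the receptors, with 83.5% and 80.4%, close to the neurons' share of all UMIs. Neurons held 2.73% and 0.847% of the UMIs of Ptgs1, 10.9% and 11.3% of Ptgs2, 3.42% and 5.11% of Ptges, and 3.52% and 1.37% of Ptgds. Free RNA was not measured, and since neurons were deeper per cell, a CPM level in other cells cannot set its share in neurons. Myelinating Schwann cells, the most numerous class, are given for comparison only. They had 0 UMIs of Ptgs1, Ptgs2, Ptges and Ptger2 in both libraries, which allows up to 1.14 CPM in control cells and 2.62 CPM in CFA cells. For the other 5 receptor genes they lay between 0 and 4.92 CPM.

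Ptgs1 (chromosome 2, 36230426 to 36252272, plus strand), the constitutive cyclooxygenase, was a macrophage gene in this ganglion. Macrophages held 81 of its 110 control UMIs and 105 of its 118 CFA UMIs. Their level was 224 CPM (178 to 279) in control cells and 369.8 CPM (302 to 448) in CFA cells, a log2 ratio of 0.72 (0.29 to 1.16), higher in CFA but short of 2-fold. A UMI was found in 51 of 170 control and 60 of 154 CFA macrophages, and no single macrophage held more than 8 UMIs. Endothelial cells, known for prostacyclin made through the same enzyme, had 22.1 CPM (10.6 to 40.6) and 11.3 CPM (2.32 to 32.9). The macrophage level was 10.1-fold (5.24 to 22) that of endothelial cells in control cells and 32.8-fold (10.9 to 162) in CFA cells. Neutrophils and monocytes had 33.9 CPM (13.6 to 69.8) in control cells and 0 UMIs in 27 CFA cells, which allows up to 53.1 CPM. Fibroblasts had 5 and 4 UMIs, and satellite glia had 0 in both libraries.

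Ptgs2 (chromosome 1, 150100031 to 150108227, plus strand), the inducible cyclooxygenase, was sparse and spread over fibroblasts and myeloid cells. Fibroblasts had 55 UMIs or 56.7 CPM (42.7 to 73.9) in control cells, and 12 UMIs or 27.6 CPM (14.2 to 48.2) in CFA cells. The log2 ratio of -1.04 (-2.08 to -0.12) was past 2-fold, lower in CFA. It rested on few cells: 27 of 464 control and 5 of 257 CFA fibroblasts had a UMI, and 1 CFA fibroblast held 7 of the 12. The subsets had different values. Fibroblasts with meningeal markers (such as Slc6a13 and Aldh1a2) had 43.9 CPM (27.8 to 65.9) and 55 CPM (27.5 to 98.4), and the other fibroblasts 52.9 CPM (33.2 to 80.1) and 4.45 CPM (0.113 to 24.8), the latter from 1 UMI against 22 in control cells. The difference between the subsets was not tested.

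In macrophages Ptgs2 lay at 44.3 CPM (25.3 to 71.9) and 52.8 CPM (29.6 to 87.1), with overlapping intervals and a log2 ratio of 0.25 (-0.86 to 1.37). Neutrophils and monocytes had 8 and 4 UMIs, or 38.7 CPM (16.7 to 76.3) and 70.7 CPM (19.3 to 181). Endothelial cells had 3 and 9 UMIs, or 6.63 CPM (1.37 to 19.4) and 33.8 CPM (15.4 to 64.1), higher in CFA with a log2 ratio of 2.35 (0.35 to 4.87), but below the 20 UMIs set for a call. Satellite glia had 4 UMIs in control cells and 0 in CFA cells. Cells that no gate took held 27 control and 7 CFA UMIs of Ptgs2, 20.9% and 13.2% of its UMIs. Their log2 ratio was -1.20 (-2.64 to 0.036), an interval that includes 0. Neurons had 14 and 6 UMIs in all, below 1 CPM in both libraries, and all 6 CFA UMIs were in 1 neuron. A higher Ptgs2 level in CFA cells was thus not detectable in fibroblasts, macrophages or neurons at this depth. In the fibroblasts, 2 of 10 genes of an interferon response list and 3 of 7 of an inflammatory cytokine list were also past 2-fold lower, beside 5.51% of all genes. The median log2 ratios of these lists were -0.64 and -0.68 beside 0.018 over all genes, and their part in the Ptgs2 value was not tested.

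Ptges (chromosome 2, 30889471 to 30929863, minus strand), the inducible terminal synthase of prostaglandin E2, had its highest level in fibroblasts and a lower one in satellite glia, the glial cells that wrap neuron cell bodies. Fibroblasts had 190 UMIs or 196 CPM (169 to 226) in control cells and 75 UMIs or 172 CPM (136 to 216) in CFA cells, with a log2 ratio of -0.19 (-0.59 to 0.21). A UMI was found in 28.9% and 23% of fibroblasts, and no fibroblast held more than 4. The control levels of the subsets were alike, 195 CPM (159 to 236) with meningeal markers and 195 CPM (155 to 242) in the others. In the CFA library these were 125 CPM (80.9 to 185) and 204 CPM (149.7 to 273), with overlapping intervals. Satellite glia had 89 and 33 UMIs, or 52 CPM (41.8 to 64) and 71.6 CPM (49.3 to 100.5). The log2 ratio of 0.46 (-0.16 to 1.05) includes 0. Fibroblasts stood 3.77-fold (2.92 to 4.91) above satellite glia in control cells and 2.41-fold (1.58 to 3.74) in CFA cells. Cells that no gate took held 56 control and 55 CFA UMIs of Ptges, 16% and 31.3% of its UMIs. Their level was 29.3 and 48.3 CPM, a log2 ratio of 0.72 (0.16 to 1.29), higher in CFA but inside 2-fold. Macrophages, endothelial cells, neutrophils and monocytes had 0 UMIs of Ptges in both libraries, which for macrophages allows up to 8.3 and 10.6 CPM. Macrophages, which carried most of the Ptgs1, therefore showed no count of this terminal synthase.

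Ptgds (chromosome 2, 25466709 to 25470046, minus strand), which makes prostaglandin D2 and is also secreted as a lipid carrier of the meninges, was concentrated in a minority of fibroblasts. All fibroblasts together had 7225 UMIs or 7453 CPM (7282 to 7627) in control cells and 2734 UMIs or 6281 CPM (6048 to 6521) in CFA cells, with a log2 ratio of -0.25 (-0.31 to -0.18). Fibroblasts with meningeal markers had 11601 CPM (11311 to 11896) and 11566 CPM (11099 to 12047), a log2 ratio of -0.0043 (-0.074 to 0.065). The other fibroblasts had 2355 CPM (2209 to 2507) and 1778 CPM (1608 to 1961), a log2 ratio of -0.40 (-0.58 to -0.24). The meningeal-marker level was 4.93-fold (4.6 to 5.28) that of the other fibroblasts in control cells and 6.5-fold (5.85 to 7.25) in CFA cells. Even so the median fibroblast had 0 UMIs, while 81 of 464 control and 31 of 257 CFA fibroblasts with at least 20 UMIs held 92.1% and 85.5% of the fibroblasts' Ptgds. The highest single fibroblast had 461 UMIs. The fibroblast ratio therefore depends on which fibroblasts were gated, and it became 0.0074 with every cell weighted equally.

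Cells that no gate took held 17.5% of the control and 38.3% of the CFA UMIs of Ptgds. Of the ungated cells with a Ptgds UMI, 63 of 126 control and 67 of 113 CFA cells had a UMI of the fibroblast panel, against 16.9% and 14% of ungated cells without Ptgds. Cells with a UMI of the fibroblast or the meningeal panel carried 89.9% and 94.2% of the ungated Ptgds. Oligodendrocyte-like cells, which myelinate the central end of the nerve root, had 283 and 167 UMIs, or 626 CPM (555 to 703) and 236 CPM (202 to 275), from 16 of 96 and 13 of 126 cells. Of these UMIs 1 control cell held 92 and 1 CFA cell 87. In satellite glia Ptgds was spread more evenly, at 127 CPM (110.5 to 145) in 20.3% of control and 71.6 CPM (49.3 to 100.5) in 12.4% of CFA cells, with a log2 ratio of -0.83 (-1.40 to -0.29). The non-myelinating Schwann level of 234 CPM in control cells came from 1 cell with 112 of 119 UMIs, and the CFA library had 2 UMIs there. Neurons had 355 and 68 UMIs of Ptgds, or 9.16 and 4.05 CPM. Myelinating Schwann cells had 54 and 49 UMIs, or 20.4 and 42.8 CPM. Since neurons were much deeper per cell, the lower CPM does not show whether neurons carry Ptgds, and this was not tested.

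**Figure D1:**
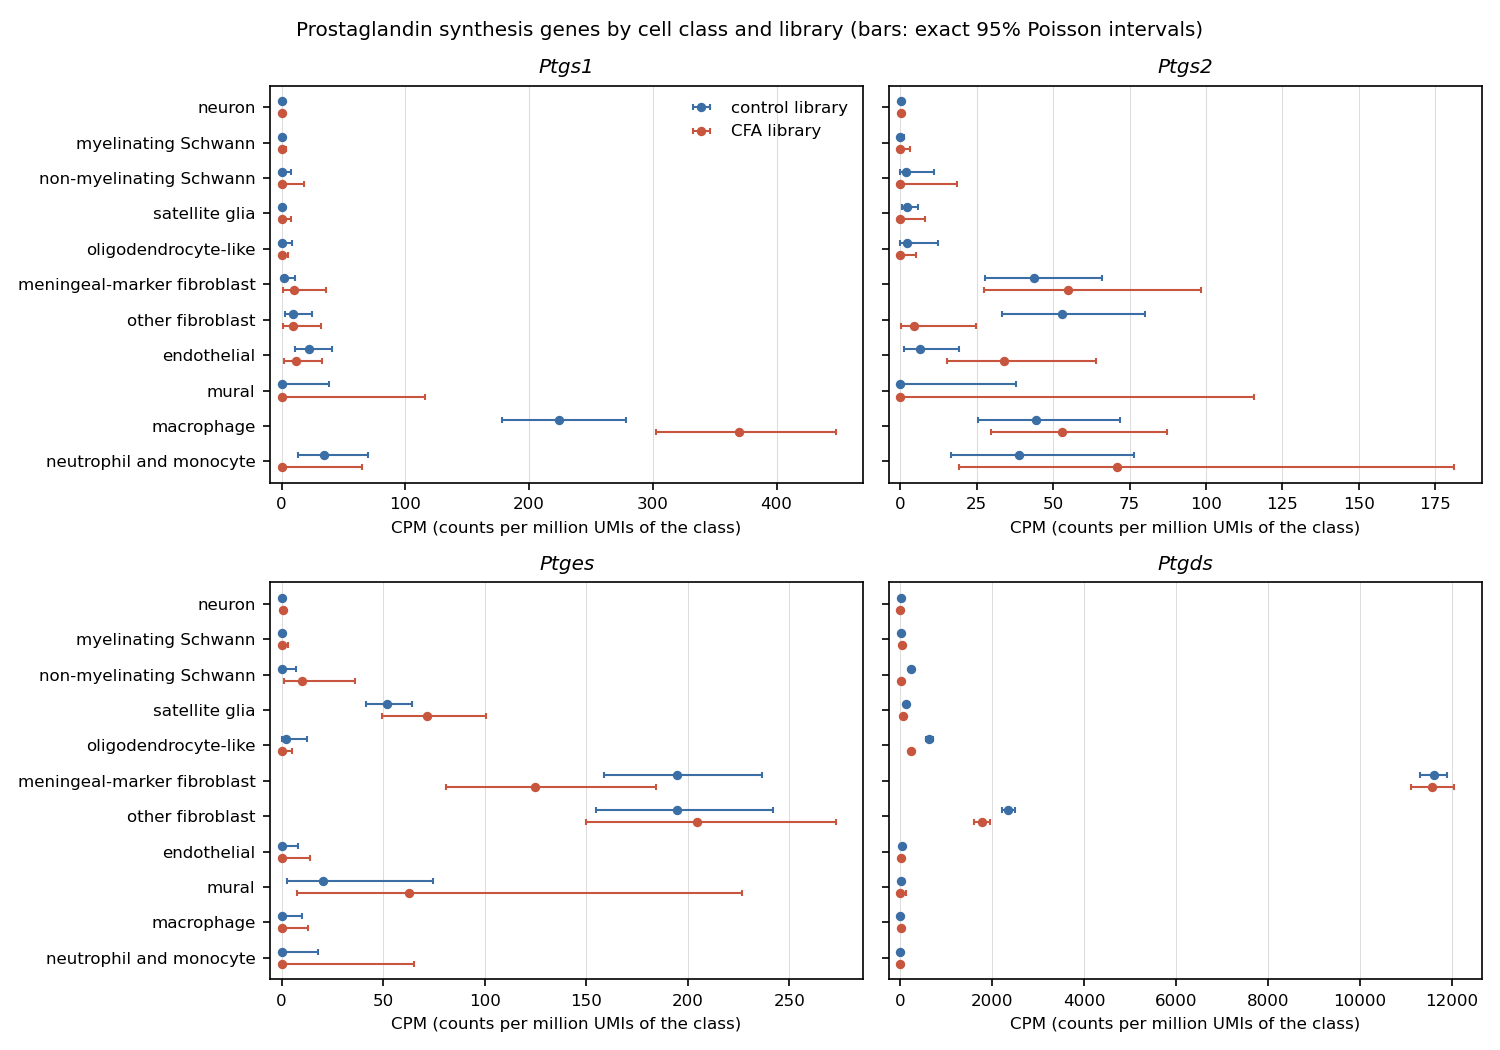
Level of the 4 synthesis genes (x axis, CPM, a separate scale for each gene) in 11 cell classes (y axis), with blue points for the control library, red points for the CFA library and bars for exact 95% Poisson intervals. Macrophages stand apart for Ptgs1 at 224 and 369.8 CPM, fibroblasts and satellite glia for Ptges, and fibroblasts with meningeal markers for Ptgds, while the Ptgs2 intervals of fibroblasts, macrophages, neutrophils and monocytes overlap widely.

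Receptors were next compared over 9 neuron classes gated by raw marker UMIs. NP1 are non-peptidergic nociceptors with Mrgprd (156 control and 61 CFA neurons), and NP2 are itch neurons with Mrgpra3 (45 and 12). PEP2 carry Nppb, Sst and Il31ra (13 and 11), Trpm8 neurons the cold receptor (39 and 19), and cLTMR are C-fiber low-threshold mechanoreceptors (70 and 46). Of the remaining neurons, those with Calca, the gene for the peptide CGRP, and without Nefh were divided into Sstr2 peptidergic C (96 and 64) and Sstr2-negative peptidergic C neurons (265 and 124). Those with Nefh, a neurofilament of myelinated neurons, were called Nefh peptidergic where Calca was also present (8 and 5) and NF where it was not (16 and 8). The names NP1, NP2 and PEP2 follow the study and not Calca. Calca lay at 4677 and 4236 CPM in NP2, 1183 and 946 CPM in NP1, and 179 and 42.8 CPM in PEP2 neurons. Each receptor had its own order of classes, and for Ptgdr, Ptger2, Ptger3, Ptger4 and Ptgir the leading class was the same in both libraries.

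Ptgdr (chromosome 14, 44851235 to 44859375, minus strand), encoding DP1, a Gs-coupled receptor, was led by NP1 and NP2 neurons. NP1 neurons had 1531 UMIs or 148 CPM (141 to 156) in control cells and 512 UMIs or 136 CPM (124 to 148) in CFA cells, and a UMI was found in 150 of 156 and 59 of 61 neurons. NP2 neurons followed with 86.1 CPM (76.8 to 96.3) and 69.8 CPM (52.3 to 91.3). NP1 stood 1.72-fold (1.52 to 1.95) above NP2 in control cells and 1.95-fold (1.46 to 2.63) in CFA cells, and 6.29-fold (5.5 to 7.22) and 7.84-fold (6.15 to 10.1) above Sstr2-negative peptidergic C neurons. cLTMR at 37 CPM (31.2 to 43.5) and 26.9 CPM (20.6 to 34.5) and Sstr2 peptidergic C at 37.5 CPM (31.6 to 44.1) and 27.7 CPM (21.3 to 35.5) did not differ beyond their counting error. Sstr2-negative peptidergic C neurons had 23.5 CPM (20.7 to 26.6) and 17.3 CPM (13.6 to 21.7), so the Sstr2 class lay 1.59-fold (1.29 to 1.96) and 1.6-fold (1.13 to 2.27) above them. Trpm8 neurons were at 2.86 and 2.35 CPM, beside 4.92 and 1.75 CPM in the shallower myelinating Schwann cells. Thinned to 5000 UMIs a neuron, the share of NP1 neurons with a UMI was 53.9% and 52.5%, against 0.24% and 0.0908% of myelinating Schwann cells, whose depth of 500 UMIs was lower.

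Within classes the CFA level of Ptgdr was lower in 5 of the 6 classes with at least 20 UMIs, by less than 2-fold each. The log2 ratio was -0.13 (-0.27 to 0.02) in NP1, -0.30 (-0.75 to 0.12) in NP2, -0.46 (-0.91 to -0.02) in cLTMR, -0.43 (-0.88 to 0.0041) in Sstr2 peptidergic C and -0.44 (-0.83 to -0.068) in Sstr2-negative peptidergic C neurons, while the 13 and 10 UMIs of the Nefh peptidergic class gave 0.19 (-1.16 to 1.49). Over all neurons Ptgdr had 66.6 CPM in control and 49.2 CPM in CFA neurons, which gave -0.44 (-0.55 to -0.32), but NP1 neurons were 156 of 860 control and 61 of 426 CFA neurons. With the neuron classes weighted as in control cells the ratio was -0.25.

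Ptger3 (chromosome 3, 157566892 to 157645888, plus strand), encoding EP3, a Gi-coupled receptor, was highest among the 9 classes in NP1 and cLTMR neurons. NP1 had 217 UMIs or 21 CPM (18.3 to 24) in control cells and 68 UMIs or 18 CPM (14 to 22.9) in CFA cells. cLTMR had 66 and 31 UMIs, or 16.6 CPM (12.8 to 21.1) and 13.7 CPM (9.28 to 19.4). The log2 difference between these 2 classes, 0.34 (-0.066 to 0.76) and 0.40 (-0.23 to 1.06), includes 0. A UMI was found in 64.7% and 60.7% of NP1 and in 54.3% and 50% of cLTMR neurons. NF neurons had 8 UMIs or 9.41 CPM in control cells and 0 UMIs in CFA cells. NP2 neurons had 4 UMIs in control cells and 0 in CFA cells, and the Sstr2 peptidergic C class had 5 and 0. NP1 lay 7.19-fold (4.92 to 10.8) above Sstr2-negative peptidergic C neurons in control cells and 7.92-fold (4.05 to 17.2) in CFA cells. The CFA over control log2 ratio was -0.22 (-0.63 to 0.18) in NP1 and -0.28 (-0.95 to 0.36) in cLTMR, both intervals including 0.

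Ptger1 (chromosome 8, 83666678 to 83672753, plus strand), encoding EP1, a Gq-coupled receptor, was highest in Sstr2-negative peptidergic C and PEP2 neurons. Sstr2-negative peptidergic C neurons had 1107 UMIs or 104 CPM (98.2 to 111) in control cells and 397 UMIs or 90.4 CPM (81.7 to 99.7) in CFA cells. PEP2 neurons had 49 and 72 UMIs, or 84.9 CPM (62.8 to 112) and 134 CPM (105 to 169), and Sstr2 peptidergic C neurons 83.3 CPM (74.4 to 93) and 64.7 CPM (54.7 to 76.1). The first and second of this order changed places between the libraries: in control cells PEP2 stood at 0.815-fold (0.599 to 1.09) the Sstr2-negative level, an interval that includes 1, while in CFA cells PEP2 stood 1.48-fold (1.14 to 1.91) above it. The Sstr2-negative class lay 1.25-fold (1.1 to 1.42) above the Sstr2 class in control cells and 1.4-fold (1.15 to 1.7) in CFA cells, and 3.61-fold (3.17 to 4.11) and 2.91-fold (2.37 to 3.61) above NP1. NP1 neurons had 28.9 CPM (25.7 to 32.4) and 31 CPM (25.6 to 37.2), and NP2 18 CPM (13.8 to 22.9) and 22.4 CPM (13 to 35.8). In cLTMR, NF and Trpm8 neurons Ptger1 lay between 1.32 and 2.99 CPM, beside 2.27 and 2.62 CPM in the shallower myelinating Schwann cells.

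The CFA over control log2 ratio of Ptger1 was -0.21 (-0.37 to -0.039) in Sstr2-negative and -0.36 (-0.66 to -0.077) in Sstr2 peptidergic C neurons, 0.10 (-0.22 to 0.41) in NP1 and 0.66 (0.11 to 1.21) in the 13 and 11 PEP2 neurons.

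Ptgir (chromosome 7, 16906490 to 16910905, plus strand), encoding the Gs-coupled prostacyclin receptor IP, separated the peptidergic and itch neurons from NP1, cLTMR and Trpm8 neurons. Sstr2-negative peptidergic C neurons had 1072 UMIs or 101 CPM (95 to 107) in control cells and 508 UMIs or 116 CPM (106 to 126) in CFA cells, and the Sstr2 class 66.8 CPM (58.9 to 75.5) and 81.5 CPM (70.2 to 94.1). NP1 neurons had 5 and 2 UMIs in all, or 0.483 CPM (0.157 to 1.13) and 0.53 CPM (0.0642 to 1.92). The Sstr2-negative class stood 209-fold (89.2 to 644) above NP1 in control cells and 218-fold (60.1 to 1807) in CFA cells, and 1.51-fold (1.32 to 1.74) and 1.42-fold (1.2 to 1.69) above the Sstr2 class. NP2 neurons had 47.4 CPM (40.5 to 55.1) and 57.9 CPM (42.1 to 77.8), and PEP2 81.5 CPM (59.9 to 108) and 50.3 CPM (33.1 to 73.1). The Nefh peptidergic neurons were highest at 157 CPM (129 to 189) and 182 CPM (146 to 224), but from 8 and 5 neurons, of which 4 and 5 had a UMI and 1 control neuron held 44 of 112 UMIs. The NF level of 27.1 and 35.8 CPM came almost wholly from 1 neuron in each library, with 22 of 23 and 12 of 12 UMIs. The CFA over control log2 ratio was 0.20 (0.041 to 0.35) in Sstr2-negative and 0.29 (0.0054 to 0.57) in Sstr2 peptidergic C neurons, slightly higher in CFA, and 0.29 (-0.22 to 0.77) in NP2.

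Ptger4 (chromosome 15, 5206661 to 5244187, minus strand), encoding the Gs-coupled EP4, was the receptor also carried by immune and stromal cells. Macrophages had 62 UMIs or 172 CPM (132 to 220) in control cells and 63 UMIs or 222 CPM (171 to 284) in CFA cells, with a log2 ratio of 0.37 (-0.16 to 0.90) that includes 0. Fibroblasts had 50 and 13 UMIs, or 51.6 CPM (38.3 to 68) and 29.9 CPM (15.9 to 51.1). T and NK cells had 5 UMIs in 27 control cells. Among neurons the Sstr2 peptidergic C class led with 239 UMIs or 62.6 CPM (54.9 to 71.1) in control cells and 114 UMIs or 50.2 CPM (41.4 to 60.3) in CFA cells. The Sstr2-negative class had 31.4 CPM (28.2 to 35) and 38 CPM (32.5 to 44.3), so the Sstr2 class stood 1.99-fold (1.68 to 2.36) and 1.32-fold (1.03 to 1.69) above it, the opposite order to Ptger1 and Ptgir. NP1 neurons had 9.18 CPM (7.43 to 11.2) and 6.1 CPM (3.86 to 9.15), and the Sstr2 class lay 6.82-fold (5.35 to 8.74) and 8.24-fold (5.23 to 13.5) above them. NP2, PEP2 and NF neurons, between 17.1 and 22.5 CPM, had overlapping intervals. The CFA over control log2 ratio was -0.32 (-0.65 to 0.0092) in the Sstr2 and 0.27 (-0.0027 to 0.55) in the Sstr2-negative class, with intervals that both include 0. The gene overlaps Ttc33 on the opposite strand.

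Ptger2 (chromosome 14, 44988195 to 45003820, plus strand), encoding the Gs-coupled EP2, was sparse, with 311 control and 80 CFA UMIs. Trpm8 neurons had the highest neuronal level at 18.1 CPM (12.8 to 24.9) and 12.9 CPM (6.44 to 23.1), from 20 of 39 and 8 of 19 neurons. NP1 had 10.1 CPM (8.22 to 12.2) and 8.22 CPM (5.58 to 11.7). Trpm8 neurons stood 1.8-fold (1.21 to 2.64) above NP1 in control cells, and in CFA cells the 1.57-fold (0.712 to 3.21) difference was not detectable at this depth. PEP2 neurons had 0 UMIs in both libraries. The Sstr2 peptidergic C class had 40 UMIs or 10.5 CPM (7.49 to 14.3) in 25 of 96 control neurons, and 5 UMIs or 2.2 CPM (0.715 to 5.14) in 5 of 64 CFA neurons. The log2 ratio there was -2.25 (-3.95 to -0.91), past 2-fold lower, and -2.30 without the neuron with the most Ptger2 in each library. Thinned to 5000 UMIs a neuron it was -0.64, inside 2-fold. In the same class 6 of 10 genes of the interferon response list were past 2-fold lower, beside 3.09% of all genes. The list had a median log2 ratio of -1.79, and its part in the Ptger2 value was not tested. Ptger2 and Ptgdr lie on chromosome 14, 128.8 kb apart, with antisense transcripts over Ptger2 that counting without strand would not set apart.

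**Figure D2:**
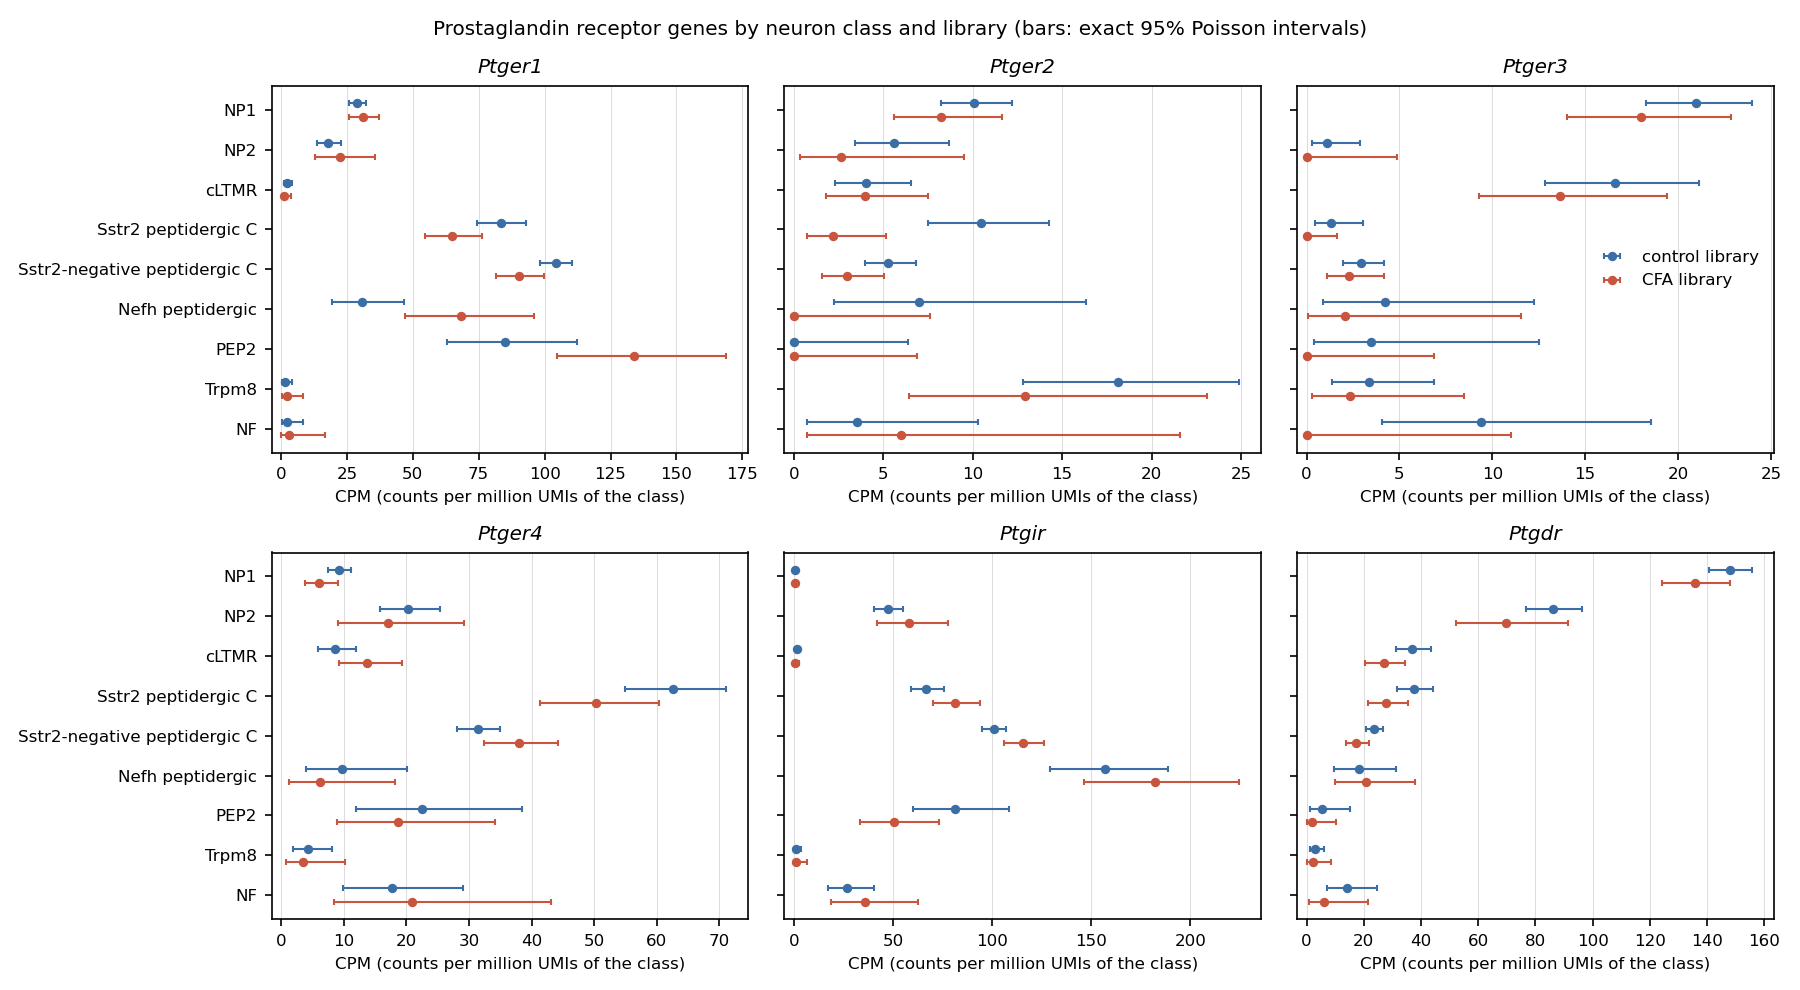
Level of the 6 receptor genes (x axis, CPM, a separate scale for each gene) in 9 neuron classes (y axis), with blue points for the control library, red points for the CFA library and bars for exact 95% Poisson intervals. Ptgdr is highest in NP1 at 148 and 136 CPM, Ptger3 in NP1 and cLTMR, Ptger4 in Sstr2 peptidergic C neurons, and Ptgir is near 0 in NP1, cLTMR and Trpm8 neurons, while the wide bars of PEP2, NF and Nefh peptidergic neurons come from few cells.

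Most neurons had a UMI of at least 1 of the 6 receptors: 764 of 860 control and 380 of 426 CFA neurons. The share was 98.1% and 97.6% in Sstr2-negative peptidergic C and 64.1% and 63.2% in Trpm8 neurons. A UMI of 3 or more receptors was found in 89.6% and 71.9% of Sstr2 peptidergic C, 65.4% and 65.6% of NP1 and 35.7% and 21.7% of cLTMR neurons. These shares rise with depth. Thinned to 5000 UMIs, 72.5% and 71% of Sstr2-negative peptidergic C, 69.5% and 72.1% of NP1, 31.4% and 28.3% of cLTMR and 7.69% and 15.8% of Trpm8 neurons had a receptor UMI.

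Pairs of receptors were then counted in the same neurons, thinned to 5000 UMIs, beside the product of the 2 single shares. In Sstr2-negative peptidergic C neurons 11.7% (8.09 to 16.2) of control and 8.87% (4.51 to 15.3) of CFA neurons had both Ptger1 and Ptgir, and the products were 14.1% and 12.3%. In Sstr2 peptidergic C neurons Ptger1 and Ptger4 were found together in 13.5% (7.41 to 22) and 7.81% (2.59 to 17.3), with products of 11.3% and 5.71%. In NP1 neurons Ptger1 and Ptgdr met in 7.79% (4.09 to 13.2) and 8.2% (2.72 to 18.1), with products of 8.05% and 10.3%. Over the 32 values with a product of at least 2%, each for a pair in 1 of 3 classes and 1 library, 19 lay above and 13 below the product, and all 32 intervals held it. At this depth no departure from the product was detectable within a class. Over all neurons, which mix the classes, Ptgir and Ptgdr met in 1.51% (0.783 to 2.63) of control neurons, below the product of 3.42%. In CFA neurons it was 2.72% (1.36 to 4.81) beside 3.24%. Ptger1 and Ptger3 also met below their product in control neurons, in 0.126% (0.00319 to 0.7) beside 0.934%. Other control pairs lay above it: Ptger1 and Ptger4 with 4.91% (3.52 to 6.65) beside 3.32%, and Ptger1 and Ptgir with 5.67% (4.16 to 7.51) beside 4.09%. So did Ptger4 and Ptgir, with 3.4% (2.25 to 4.91) beside 2.07%. The CFA intervals of these pairs held their products.

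**Figure D3:**
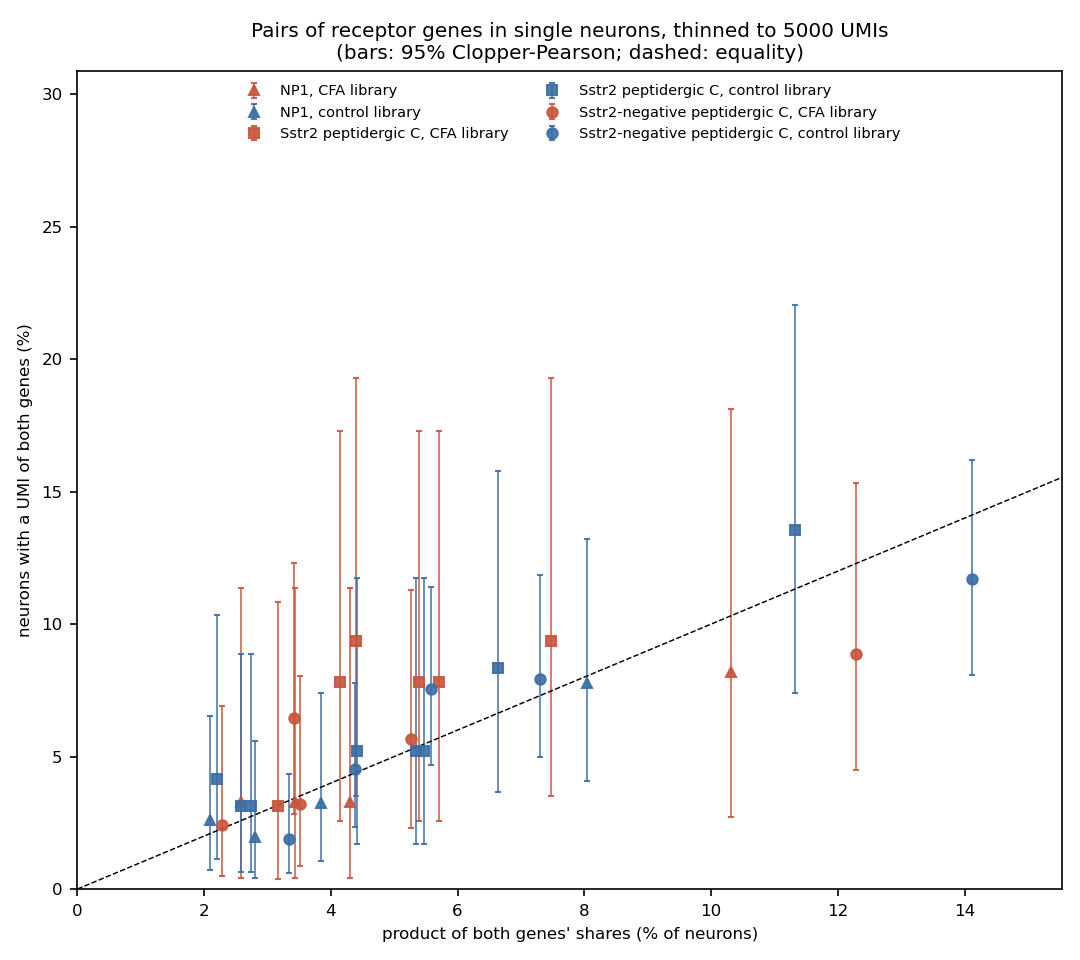
Share of neurons with a UMI of both receptors of a pair (y axis, percent) against the product of the 2 single shares (x axis, percent), after thinning to 5000 UMIs, for 32 combinations of a pair, a class and a library in NP1 (triangles), Sstr2 peptidergic C (squares) and Sstr2-negative peptidergic C neurons (circles). Blue is the control and red the CFA library, bars are 95% Clopper-Pearson intervals, and all 32 bars cross the dashed line of equality.

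The members were set against all genes of a class by a 2-fold difference between the libraries. Among genes with at least 20 UMIs over both libraries, 0 of 9 members were past 2-fold higher and 1 lower in CFA in all neurons, where 2.29% of all genes were past it higher and 3.19% lower. The 1 member was Ptgds, at -1.18 (-1.58 to -0.80), where the neuronal level lay below that of myelinating Schwann cells in both libraries. In NP1 it was 0 and 0 of 6, where 1.25% and 3.07% of all genes were past 2-fold higher and lower. In cLTMR it was 0 and 0 of 5 beside 1.62% and 2.15% of all genes. In Sstr2 peptidergic C neurons 0 of 6 were higher and 2 lower (Ptger2 and Ptgds), beside 1.38% and 3.09% of all genes. In Sstr2-negative peptidergic C neurons 0 of 7 were higher and 1 lower (Ptgds), beside 1.5% and 3.36%.

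Outside neurons, fibroblasts had 0 of 4 members higher and 1 lower (Ptgs2), beside 4.03% and 5.51% of all genes. Macrophages had 0 higher and 0 lower of 3, beside 3.89% and 6.59%, and satellite glia 0 and 0 of 2, beside 3.24% and 6.21%. The members' median log2 ratio was -0.52 in fibroblasts, 0.37 in macrophages and -0.36 in Sstr2-negative peptidergic C neurons, beside 0.018, -0.031 and -0.019 over all genes. In Sstr2 peptidergic C neurons it was -0.40, in cLTMR -0.28 and in NP1 -0.17, beside -0.0027, -0.019 and -0.023. In satellite glia it was -0.18 and in all neurons -0.043, beside 0.0040 and -0.0022. Each median rests on the few members counted above. Of the 33 ratios in these classes other than all neurons, 21 intervals included 0 and 9 lay below it. The 3 above it were Ptgs1 in macrophages and Ptgir in both peptidergic C classes. The share of all genes with an interval that leaves out 0 was not counted, so these numbers have no background beside them. Of the 33 ratios, 5 lay outside the 5th to 95th percentile of all genes of their class.

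**Figure D4:**
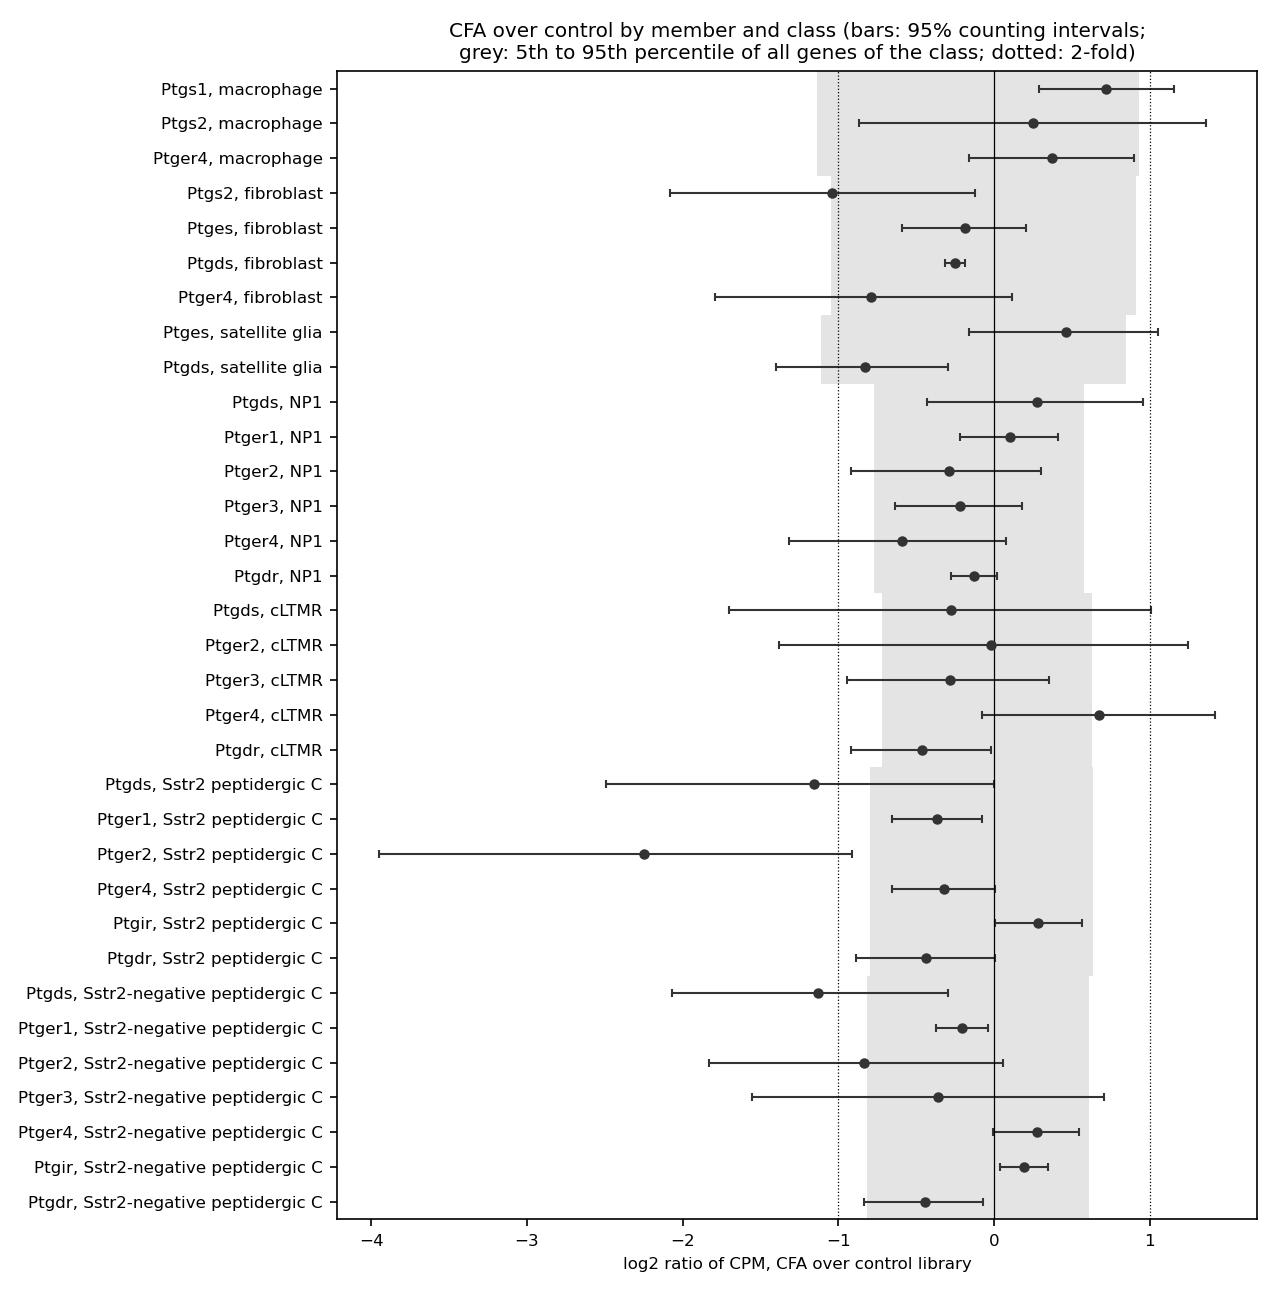
Log2 ratio of CPM, CFA over control library (x axis), for 33 combinations of gene and class with at least 20 UMIs (y axis). The classes drawn are macrophages, fibroblasts, satellite glia, NP1, cLTMR and both peptidergic C classes. Bars are 95% counting intervals, grey bands run from the 5th to the 95th percentile of all genes of the class and dotted lines mark 2-fold. Classes not drawn also had ratios past 2-fold in both directions, such as Ptgds at -4.55 in non-myelinating Schwann cells and Ptger1 at 1.15 in Nefh peptidergic neurons. Of the 33 points 28 lie inside the grey band of their class, and the point farthest left is Ptger2 in Sstr2 peptidergic C neurons at -2.25.

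Other genes of the pathway were read from 5 lists of 38 genes, all found in the files. Macrophages, which carried Ptgs1, also carried genes on both sides of it. Of all macrophage genes with at least 20 UMIs, 3.89% were past 2-fold higher and 6.59% lower. Of the 4 measured genes among other prostanoid synthases, 0 were past 2-fold higher and 1 lower: Tbxas1, thromboxane synthase, went from 36 to 13 UMIs (99.7 and 45.8 CPM, log2 ratio -1.12, -2.16 to -0.17), while Hpgds, the hematopoietic prostaglandin D synthase, went from 76 to 89 UMIs (210.4 and 313 CPM, log2 ratio 0.58, 0.12 to 1.04). Hpgd, which inactivates prostaglandins, went from 44 to 64 UMIs (122 and 225 CPM, log2 ratio 0.89, 0.31 to 1.48). Of 4 measured leukotriene genes 1 was past 2-fold higher: Ltc4s, which makes leukotriene C4, went from 13 to 29 UMIs (36 and 102 CPM, log2 ratio 1.51, 0.52 to 2.57), and Alox5ap, the partner of 5-lipoxygenase, lay at 529 and 409 CPM. The arachidonic acid release list also holds genes that act against release. Of its 4 measured genes 1 was higher, Lpcat3, which loads arachidonic acid into membrane lipids, at 22.1 and 56.4 CPM. Another 1 was lower, Anxa1, the gene of an anti-inflammatory phospholipase inhibitor, at 52.6 and 17.6 CPM.

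In fibroblasts 1 of 5 other synthases was past 2-fold higher and 0 lower, beside 4.03% and 5.51% of all genes. This was Ptgis, prostacyclin synthase, which went from 6 to 35 UMIs (6.19 and 80.4 CPM, log2 ratio 3.70, 2.43 to 5.24). Few cells carried it: 2 control and 9 CFA fibroblasts had a UMI, 1 CFA cell held 12, and 31 of the 35 CFA UMIs were in 5 fibroblasts without meningeal markers. Anxa1 in fibroblasts went from 34 to 39 UMIs (35.1 and 89.6 CPM, log2 ratio 1.35, 0.65 to 2.06). It was the 1 of 5 measured genes of the arachidonic acid release list past 2-fold there. Ptgfr, the receptor of prostaglandin F2 alpha, had 51.6 and 82.7 CPM in fibroblasts, with a log2 ratio of 0.68 (0.021 to 1.33), and 0 of 2 measured genes of the other-receptor list were past 2-fold. In endothelial cells Ptgis lay at 26.5 and 37.5 CPM, the prostaglandin transporter Slco2a1 at 81.8 and 45 CPM and the exporter Abcc4 at 81.8 and 154 CPM, all inside 2-fold. Lta4h, which makes leukotriene B4, was past 2-fold lower there, from 32 to 8 UMIs (70.7 and 30 CPM, log2 ratio -1.24, -2.56 to -0.088). It was 1 of 2 measured leukotriene genes, and the 5th to 95th percentile of all endothelial genes was -1.08 to 0.909.

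Neurons had the broadly used terminal synthases Ptges3 (321 and 371 CPM) and Ptges2 (30.4 and 33 CPM), and 0 of 6 other synthases were past 2-fold in either direction. Of all neuronal genes with at least 20 UMIs, 2.29% were past 2-fold higher and 3.19% lower. Of 7 genes of the arachidonic acid release list 0 were higher and 1 lower (Anxa1, from 20 to 1 UMI). Of 4 genes of transport and inactivation 1 was higher and 0 lower (Slco2a1, at 0.516 and 1.31 CPM). Of 3 other receptor genes 1 was past 2-fold higher, Ptgfr, at 0.387 and 1.19 CPM, with 14 of 20 CFA UMIs in 1 neuron. Of 3 leukotriene genes 0 passed, and the receptor gene Cysltr2 lay at 16.6 and 20.5 CPM. In satellite glia 0 of 5 other synthases were past 2-fold, beside 3.24% of all genes higher and 6.21% lower, and Ptges3 lay at 127 and 165 CPM.

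Lists of 5 kinds that may move with a library were read in all neurons, where 2.29% of all genes were past 2-fold higher and 3.19% lower. The interferon response list had 0 higher and 6 lower of 11 genes (median log2 ratio -1.41), the inflammatory cytokine list 0 and 3 of 8 (-0.83), the immediate early list 0 and 0 of 9 (0.14), the mitochondrially encoded list 1 and 0 of 9 (0.26) and the Y-linked list 0 and 0 of 4 (0.11). In macrophages, where the Ptgs1 level was higher in CFA, the interferon list had 3 of 9 genes lower and the cytokine list 0 of 9, beside 6.59% of all genes. Whether these had a part in the members' values was not tested.

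Genes with the most similar pattern were ranked by Pearson's r of log2(CPM + 1) over 22 classes in both libraries (44 points), among 12579 genes. The points share libraries and depth, and r is a description. For Ptgs1 they were Slco2b1 (r = 0.89), Itga5 (0.87) and Arap3 (0.8), for Ptgs2 Cxcl16 (r = 0.85), Anxa3 (0.84) and Cxcl2 (0.82), for Ptges Bgn (r = 0.85), Islr (0.83) and Pcolce (0.83) and for Ptgds Gjb2 (r = 0.86), Mmp2 (0.84) and Gstk1 (0.84). Cxcl2 and Cxcl16 are chemokine genes, and Bgn, Islr and Pcolce are genes of the extracellular matrix and its assembly. Among the receptors they were Aox1 (r = 0.86), Slc1a6 (0.86) and Trim46 (0.85) for Ptgdr, Kcnmb1 (r = 0.86), 1110018N20Rik (0.85) and Syt5 (0.83) for Ptger1, Cdhr1 (r = 0.84), Cpb1 (0.81) and Dbpht2 (0.8) for Ptgir and Gm32635 (r = 0.84), Gprin2 (0.77) and Rspo2 (0.76) for Ptger3. Ptger4 had lower values with B4galt1 (r = 0.75), Rpl36al (0.74) and Abracl (0.73), as had Ptger2 with Iba57 (r = 0.69), Serpina3g (0.68) and Tmem179 (0.66).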

How the data were processed

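The deposited files hold, per library, a matrix of raw UMI counts per gene symbol and cell, which the authors made from BD Rhapsody reads on GRCm38 with fastp among the tools named in the submitters' processing notes. The counter, the annotation and the use of strand were not given in the sources used here, so reads of overlapping genes on opposite strands may not be told apart. Some genes of the files are not reported here. The 10 members and all gene lists were chosen with earlier results of these data known. Cells needed 150 genes or more and 25% mitochondrial counts or fewer, as in the study's methods. Neurons needed at least 20 UMIs over at least 3 genes of a neuron panel that made up at least 0.3% of their UMIs, and other cells at least 3 UMIs over at least 2 genes of a panel, with each other panel at 50% of it or less. Neuron classes needed 5 UMIs of Mrgprd, Mrgpra3 or Trpm8, 20 of the PEP2 panel, 10 of the cLTMR panel, 30 of Nefh, 100 of Calca or 3 of Sstr2. No doublet caller was run, and cells with mixed panels stayed ungated. UMIs were summed per class and library, because cells are not replicates and each group is 1 library. Ratios have conditional exact binomial 95% intervals, shares Clopper-Pearson ones, and called means at least 2-fold among genes with at least 20 UMIs. Named genes were the members, pathway genes with at least 20 UMIs in the class and the 3 most similar genes per member. The ratio intervals were tested on simulated data. Altogether 13 alternatives were planned and 3 added. Numpy 2.4.6, scipy 1.17.1 and pandas 2.3.3 were used.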

Additional observations from a re-analysis of the deposited data

Results flagged for a closer look

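Members whose ratio lay above 0 in one class and below 0 in another, each with a counting interval that leaves out 0, were taken out for a closer look. Ptger1 had a CFA over control log2 ratio of 1.15 in the Nefh peptidergic class (22 UMIs in 8 control and 33 in 5 CFA neurons) and of -0.36 in Sstr2 peptidergic C neurons. In the first class 1 neuron held 10 of the control and 1 held 17 of the CFA UMIs. Ptgds had a ratio of 1.06 in myelinating Schwann cells and of -5.87 in erythroid cells, and in both a single cell held most of the UMIs, 35 of 49 in the CFA Schwann cells and 44 of 46 in the control erythroid cells. With 1 library a group the differences between classes were not tested.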

How the results depend on the processing

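Of 130 recomputed ratios of a member in the class with most of its UMIs, 114 stayed within the counting interval, 16 moved outside it and none that was past 2-fold turned direction. Of 247 other ratios 225 stayed. Thinned to one depth, the log2 ratios were -2.73 for Ptgs2 and -0.0566 for Ptgds in fibroblasts, 0.658 for Ptger2, 0.199 for Ptger3 and -0.294 for Ptgdr in NP1, and -0.773 for Ptger1, -0.542 for Ptger4 and 0.471 for Ptgir in Sstr2-negative peptidergic C neurons. Ptger2 and Ptger3 in NP1 and Ptger4 thereby changed sign. Ptgds in fibroblasts was -0.416 for cells of 300 genes or more and 10% mitochondrial counts or fewer, -0.107 and -0.835 with gate minimums halved and doubled, -0.146 with other panels allowed up to 25% and 0.00744 with every cell weighted equally. The cause was not tested. Another setting left out neurons whose summed UMIs of the non-neuronal panels were above a set share of their neuron panel UMIs. It gave 0.784 for Ptger1 and -1.22 for Ptger4 in Sstr2-negative peptidergic C neurons. Only 14 of 265 control and 4 of 124 CFA neurons stayed, since neurons use genes of the non-myelinating Schwann panel such as Gfra3 and L1cam. Neurons that stayed could still hold some UMIs of those panels. Without the Schwann and mural panels, an alternative chosen after seeing the data, 264 and 123 stayed and no ratio moved. The fibroblast Ptgs2 ratio was -2.16 without the top cell of each library, also chosen after seeing the data, as was the weighting of neuron classes. The share of all genes past 2-fold, 1.25% to 6.59% by class and direction, was 0.373% to 3.46% for genes with at least 50 UMIs and 5.25% to 15.8% for those with at least 1 UMI in both libraries. The class with the highest CPM was the same for 10 of 10 members under most settings, but for 8 control and 5 CFA members after thinning. No paired analysis was possible because each group is 1 library. Of gated non-neuronal cells 453 of 4432 control and 363 of 2283 CFA cells held only 3 or 4 panel UMIs. Counts were few for 2 members: Ptgs2 had 129 and 53 UMIs and Ptger2 311 and 80.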

Other observations

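Fibroblasts with perineurial markers (such as Cldn1 and Itgb4), few in both libraries, had values of their own. In 13 control cells Ptgs2 had 10 UMIs or 337 CPM (162 to 619.8), from 4 cells, and in 6 CFA cells 0. Ptges had 7 and 4 UMIs, or 236 CPM (94.9 to 486) and 386 CPM (105 to 988). Of the 168 control UMIs of Ptgds in these cells 1 cell held 165, and of the 21 CFA UMIs 1 cell held 19.

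Neurons that met more than 1 class gate, 7 control and 3 CFA cells, had 146 CPM (119 to 177) and 80.5 CPM (51 to 121) of Ptgdr. Their Ptger3 level was 22.7 and 7 CPM, from 16 and 2 UMIs. Neurons of no class, 145 and 73 with medians of 5777 and 8470 UMIs, had 16.1 CPM (10.3 to 24) and 30.6 CPM (20 to 44.9) of Ptger4 and 34.3 CPM (25.5 to 45) and 44.8 CPM (31.7 to 61.5) of Ptgir. Ptger3 lay there at 12.8 and 22.4 CPM, from 19 UMIs in each library. Ptgfrn, a membrane protein that binds the prostaglandin F2 alpha receptor, was a satellite glia gene at 245 and 206 CPM. Pla2g4a, a phospholipase that frees arachidonic acid, had 175 and 147 CPM in oligodendrocyte-like cells and 42.3 and 43.6 CPM in fibroblasts.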
